A study of Homo sapiens with 4 samples.

Results

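Transcripts of 9 genes through which a human cell detects foreign or misplaced nucleic acid and passes the alarm on were examined in SK-N-SH cells. The 9 are DDX58, IFIH1, TLR3, EIF2AK2, TRIM25, MAVS, TBK1, IRF3 and ADAR, taken by their symbols as the table of counts lists them, and all 9 were found among its 24014 genes. SK-N-SH is an established human neuroblastoma cell line whose cultures hold adrenergic, neuroblast-like cells and mesenchymal, adherent cells. RNA-seq was performed on 2 libraries of control cells, labelled wild type. It was also performed on 2 libraries of cells given a lentivirus that carries the long non-coding RNA AP1AR-DT, labelled AC109347.1 (AP1AR-DT_OE). The groups were compared to ask which transcripts change with AP1AR-DT. The paper names an empty control vector for a chromatin assay in SK-N-SH but does not state what the controls of this RNA-seq received. If they received such a vector, no library of untransduced cells was analysed here. If they did not, transduction goes together with AP1AR-DT. In either case, what transduction itself did to these genes cannot be told from the comparison. The labels name neither the time after transduction nor whether the libraries of a group were separate cultures, so p-values measure only the spread between these libraries, which may be technical. The labels of AP1AR-DT_OE 2 spell the RNA AC109347.2 in 2 fields, and its title was followed.

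The libraries held between 21988065 and 26184599 counts, and AP1AR-DT, read as a check of the labels, was read at 3 and 18 counts in control 1 and 2, against 680 and 1065 in AP1AR-DT_OE 1 and 2. Of 8 adrenergic markers, 7 had a row and TH had none, and all 8 mesenchymal markers had a row. Summed normalized counts in a library were 20688 to 25418 for the adrenergic and 142969 to 199693 for the mesenchymal markers. Among immune cell markers, PTPRC, LST1, AIF1 and CD3E had no row, CD14 and ITGAM lay at 8 counts or fewer, and CD68 and CSF1R were read at 44 to 137 counts. A normalized count is a count divided by the size factor of its library. In this table a pair of reads is worth about 4 counts, since the value 4 occurred 3287 times against 2136 for 3 and 1509 for 5, so low counts rest on few read pairs. No marker of either cell state was called, and the lowest p belonged to the mesenchymal marker PRRX1 (Log2FC = -2.02, DESeq2 adjusted p = 0.431), whose part in the results was not tested.

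DDX58 encodes RIG-I and IFIH1 encodes MDA5, helicases of the cytosol that bind viral or otherwise unusual RNA and then engage MAVS, an adaptor anchored in the outer mitochondrial membrane. TLR3 recognises duplex RNA inside endosomes and signals through the adaptor TICAM1 (TRIF), EIF2AK2 encodes PKR, a kinase that blocks translation when it binds duplex RNA, and TRIM25 is a ubiquitin ligase known for promoting RIG-I signalling. MAVS and TICAM1 lead to the kinase TBK1, which phosphorylates the transcription factor IRF3, and IRF3 turns on interferon genes. ADAR edits adenosine to inosine in duplex RNA of the cell itself and thereby keeps it from being read as foreign by MDA5 and PKR.

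Several of these genes are known to be raised by interferon through promoter elements made of repeated GAAA units, and the promoters of the members were read for this feature, which the choice of members did not use. Promoters from RefSeq (GRCh38.p14), 250 bases before to 50 after each start, were searched on both strands for GAAANNGAAA and for the more tightly spaced GAAANGAAA. The second pattern was added after the promoters had been read. Of the 8 members with an entry, DDX58, IFIH1, TLR3, EIF2AK2 and TRIM25 held a match. MAVS, TBK1 and ADAR, the last with 3 listed starts, held none. IRF3 had no entry. Over all 27305 genes with a promoter, 4.38% held the first pattern, 3.87% the second and 7.83% either. IFIH1, TLR3 and EIF2AK2 matched only GAAANNGAAA, and DDX58 and TRIM25 only GAAANGAAA, so no single pattern was common to the 5. Because the second pattern was added after the reading, the share of members with either cannot be weighed against the 7.83%. Each match is given as 30 bases on the strand of the gene, 5′ to 3′, with the match in capitals.

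DDX58, chr9:32526381-32526410, minus strand, match beginning 203 bases before the start: cggtgcggaggGAAACGAAActagcccgag
IFIH1, chr2:162318686-162318715, minus strand, 21 bases before the start: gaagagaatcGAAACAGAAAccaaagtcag
TLR3, chr4:186069142-186069171, plus strand, 4 bases before the start and read on the opposite strand: caagctttacTTTCACTTTCgagagtgccg
EIF2AK2, chr2:37156967-37156996, minus strand, 6 bases before the start: agtccaagggGAAAACGAAActgagaacca
TRIM25, chr17:56914034-56914063, minus strand, 3 bases before the start and read on the opposite strand: ctcgagctaggTTTCGTTTCctcggcggcc

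IFIH1 held another pair of matches, which overlap each other, at 159 and 153 bases before the start and on the opposite strand. A match is a description of the letters and not a site of binding.

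The members spanned a wide range of levels. To compare genes, normalized counts were divided by the length of the longest transcript in kilobases, and the mean level over the 4 libraries fell from ADAR at 1793 per kilobase through TRIM25 at 816, IRF3 at 750, MAVS at 181 and EIF2AK2 at 45.7 to TBK1 at 12.2, IFIH1 at 10.8, DDX58 at 6.40 and TLR3 at 5.53. ADAR stood above 95.6% of the 23954 genes with a length, TRIM25 above 90.4% and IRF3 above 89.6%, while MAVS stood above 73.7% and EIF2AK2 above 55.7%. The helicases and TLR3 stood lower, with IFIH1 above 36.7% of genes, DDX58 above 30.2% and TLR3 above 28.5%, and TBK1 was above 38.3%. The library ranges did not overlap between ADAR and TRIM25, IRF3 and MAVS, MAVS and EIF2AK2, or EIF2AK2 and TBK1. They overlapped between TRIM25 and IRF3 and between every neighbouring pair among TBK1, IFIH1, DDX58 and TLR3, so the order within those sets is not read. With the length of the MANE Select transcript, IRF3 (1351 per kilobase) came above TRIM25 (816), EIF2AK2 and TBK1 overlapped, and TBK1 and IFIH1 did not.

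**Figure D1:**
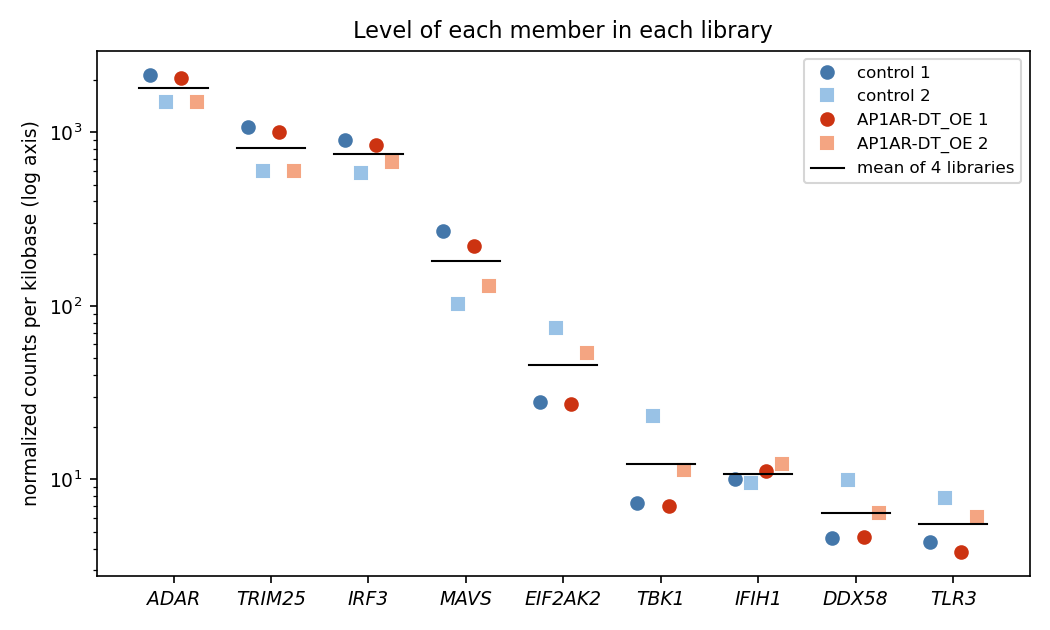
Normalized counts per kilobase of the longest transcript (log axis) for each member in each of the 4 libraries, circles for number 1 and squares for number 2, with a bar at the mean of the 4. ADAR, TRIM25, IRF3 and MAVS lie at 103 or more in every library and TBK1, IFIH1, DDX58 and TLR3 at 23.2 or less, and the squares lie under the circles for the first 4 members and above them for EIF2AK2, TBK1, DDX58 and TLR3 within each group.

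Within every library, MAVS and TRIM25 were more abundant per kilobase than the helicases DDX58 and IFIH1, and IRF3 more than TBK1. In these comparisons the more abundant gene had the higher GC content, 51.1% to 59.0% against 36.1% to 43.2%. Levels of different genes, above and below, were not corrected for GC content, and its part in them was not tested. MAVS was between 5.28 and 18.5 times the sum of DDX58 and IFIH1, TRIM25 was between 59.9 and 232 times DDX58, and IRF3 was between 24.9 and 123 times its kinase TBK1. ADAR exceeded IFIH1 by 121 to 212 times and EIF2AK2 by 19.98 to 76.9 times. The lowest of these ratios came from control 2 for all but ADAR over IFIH1, whose lowest was AP1AR-DT_OE 2. IFIH1 over DDX58 lay between 0.961 and 2.42, on either side of equality.

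Between the groups, none of the 9 members was called at an adjusted p under 0.05 (DESeq2 Wald test, adjusted over all genes; adjusted p = 1 for each), where 0.137% of the 24014 genes tested were called (33 genes, of which 20, or 0.0833%, were raised with AP1AR-DT and 13, or 0.0541%, were lowered). An unadjusted p under 0.05 was found for 0.816% of genes. None of the members had an unadjusted p under 0.05, and the lowest was 0.354 for TBK1. By the edgeR quasi-likelihood test, which called 0 of all genes and gave 112 an unadjusted p under 0.05, the lowest among the members was 0.339, again for TBK1. Log2FC, AP1AR-DT_OE over control, ran from -0.74 (TBK1) to 0.26 (IFIH1), and it was above 0 for IFIH1 and IRF3 and below 0 for the other 7. The median over the 6 members averaging 50 or more normalized counts was -0.08, against -0.02 over all 13298 such genes.

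**Figure D2:**
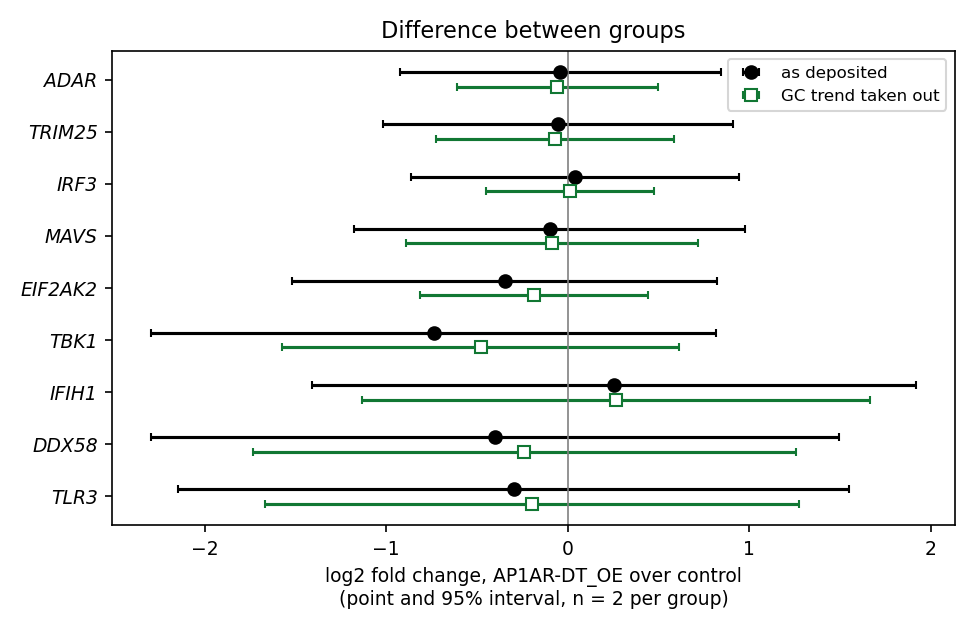
Log2FC of each member, AP1AR-DT_OE over control, with its 95% interval, from the counts as deposited (filled circles) and with the GC trend of each library taken out (open squares); n = 2 libraries per group. Every interval includes 0, and the intervals of IRF3 and ADAR are narrower than those of TBK1, DDX58 and TLR3.

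Among the sensors, DDX58 (ENSG00000107201; chromosome 9, 32455302 to 32526208, GRCh38) was read at 22.8 and 49.4 normalized counts in control 1 and 2, and at 23.0 and 31.8 in AP1AR-DT_OE 1 and 2. Control 2 was the highest library and the other 3 lay between 22.8 and 31.8, so the groups overlapped. Control averaged 36.1 ± 18.8 (SD, n = 2) against 27.4 ± 6.17 for AP1AR-DT_OE, a Log2FC of -0.40 (SE = 0.97) whose 95% interval covered 0.203-fold to 2.82-fold. At 4 counts a pair these values rest on about 5, 16, 5.25 and 8 read pairs. With the counts divided by 4 the SE rose to 1.28, which makes the interval wider. A change within it could not be told from none with 2 libraries per group at this depth.

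IFIH1 (ENSG00000115267; chromosome 2, 162267074 to 162318684) was read at 37.6 and 35.5 normalized counts in control 1 and 2, and at 41.7 and 45.7 in AP1AR-DT_OE 1 and 2. It was the member whose groups did not overlap, as 13.7% of all genes did not, with averages of 36.5 ± 1.49 (SD, n = 2) for control against 43.7 ± 2.81 for AP1AR-DT_OE. The Log2FC was 0.26 (SE = 0.85) and its interval covered 0.377-fold to 3.79-fold, on 8.25 to 11.5 read pairs in a library. With the counts divided by 4 the SE rose to 1.11. A change within the interval could not be told from none with 2 libraries per group at this depth.

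TLR3 (ENSG00000164342; chromosome 4, 186069155 to 186088073) was read at 26.2 and 47.1 normalized counts in control 1 and 2, and at 23.0 and 36.7 in AP1AR-DT_OE 1 and 2. As with DDX58, number 2 was the higher library in each group and the groups overlapped. The Log2FC was -0.30 (SE = 0.94, interval 0.226-fold to 2.93-fold). TICAM1, the adaptor TLR3 needs, was 126 to 438 times as abundant per kilobase, with 2645 to 5124 normalized counts and a Log2FC of -0.04. It was named here for its role.

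EIF2AK2 (ENSG00000055332; chromosome 2, 37099210 to 37157522) was read at 282 and 751 normalized counts in control 1 and 2, and at 273 and 541 in AP1AR-DT_OE 1 and 2. The number 1 libraries were nearly equal, and both number 2 libraries were higher. Control averaged 517 ± 332 (SD, n = 2) against 407 ± 189 for AP1AR-DT_OE (Log2FC = -0.35, SE = 0.60, interval 0.349-fold to 1.77-fold). An exon of EIF2AK2 overlaps GPATCH11 and AC007899.3 on the opposite strand, and whether the counting used strand is not stated, so reads there cannot be told apart.

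TRIM25 (ENSG00000121060; chromosome 17, 56836387 to 56914080), a ligase known for promoting RIG-I signalling, was read at 6132 and 3422 normalized counts in control 1 and 2, and at 5755 and 3448 in AP1AR-DT_OE 1 and 2. The number 2 libraries were the lower ones and nearly equal, so the groups overlapped. The Log2FC was -0.05 (SE = 0.49, interval 0.493-fold to 1.88-fold). TRIM25 has exon sequence in common with C17orf67 on its own strand and with DGKE on the other, and summed with C17orf67 it was not called either.

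MAVS (ENSG00000088888; chromosome 20, 3846799 to 3876123) was read at 3188 and 1209 normalized counts in control 1 and 2, and at 2586 and 1518 in AP1AR-DT_OE 1 and 2. Control 1 was the highest and control 2 the lowest library, and both AP1AR-DT_OE libraries lay between them. Control averaged 2198 ± 1399 (SD, n = 2) against 2052 ± 756 for AP1AR-DT_OE (Log2FC = -0.10, SE = 0.55, interval 0.443-fold to 1.97-fold).

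TBK1 (ENSG00000183735; chromosome 12, 64452090 to 64502114) had the largest difference of the 9. It was read at 43.3 and 138 normalized counts in control 1 and 2, and at 41.7 and 67.5 in AP1AR-DT_OE 1 and 2. Only control 2 stood apart, and the other 3 libraries lay between 41.7 and 67.5. Control averaged 90.7 ± 67.0 (SD, n = 2) against 54.6 ± 18.3 for AP1AR-DT_OE (Log2FC = -0.74, SE = 0.79, interval 0.204-fold to 1.77-fold), and without control 2 the Log2FC was 0.35.

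IRF3 (ENSG00000126456; chromosome 19, 49659569 to 49665875) was read at 2584 and 1665 normalized counts in control 1 and 2, and at 2439 and 1930 in AP1AR-DT_OE 1 and 2 (an exon overlaps BCL2L12 on the opposite strand). ADAR (ENSG00000160710; chromosome 1, 154581695 to 154628013) was read at 15630 and 10806 in control 1 and 2, and at 14914 and 10806 in AP1AR-DT_OE 1 and 2. In both genes the number 1 libraries were higher and the groups overlapped. The Log2FC was 0.04 for IRF3 (SE = 0.46, interval 0.550-fold to 1.92-fold) and -0.04 for ADAR (SE = 0.45, interval 0.528-fold to 1.79-fold). These intervals had the lowest SE of the 9, and that of ADAR still took in a change to 1.79-fold.

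For every member but IFIH1, the controls differed from each other by more than the group averages did. Differences between libraries of the same group went with the GC content of the transcript. Over 13284 genes, the log2 ratio of control 2 over control 1 had a median of 1.25 for transcripts under 40% GC and of -0.73 for those of 55% or more, and that of AP1AR-DT_OE 2 over AP1AR-DT_OE 1 had medians of 0.80 and -0.34. The members fall on both sides of this trend. DDX58, TLR3, EIF2AK2 and TBK1, with a GC content of 36.1% to 39.8%, were higher in number 2 in both groups, by 1.80-fold (TLR3) to 3.19-fold (TBK1) in the controls and by 1.38-fold (DDX58) to 1.98-fold (EIF2AK2) in AP1AR-DT_OE. MAVS, ADAR, TRIM25 and IRF3, with 49.9% to 59.0%, were lower in number 2 in both groups, at 0.379-fold (MAVS) to 0.691-fold (ADAR) in the controls and 0.587-fold (MAVS) to 0.791-fold (IRF3) in AP1AR-DT_OE. IFIH1, with 43.2%, was close to equal in both, at 0.944-fold and 1.10-fold.

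For EIF2AK2 and TBK1 the ratio of the controls exceeded what counting on read pairs allows, with exact 95% intervals of 2.01 to 3.58 and 1.51 to 6.78, and for MAVS, ADAR, TRIM25 and IRF3 the intervals lay wholly under 1. For DDX58 (0.759 to 7.56) and TLR3 (0.621 to 5.33) they included 1. In AP1AR-DT_OE the interval of TBK1 (0.665 to 3.76) included 1, and for the other members named here they lay as in the controls. These intervals cover counting error only. Against genes within 1 percentage point of their own GC content, the control ratios of DDX58, IRF3, EIF2AK2 and TBK1 exceeded those of 50.05%, 61.2%, 68.6% and 73.5% of such genes, and that of IFIH1 exceeded 11.7%. MAVS lay near the lower end in both groups, above 2.55% of 901 genes in the controls and 5.99% in AP1AR-DT_OE, and so did TRIM25, above 11.5% and 4.50% of 866. ADAR was above 23.0% and 15.7% of 821, and TLR3 above 21.2% and 39.7% of 744.

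**Figure D3:**
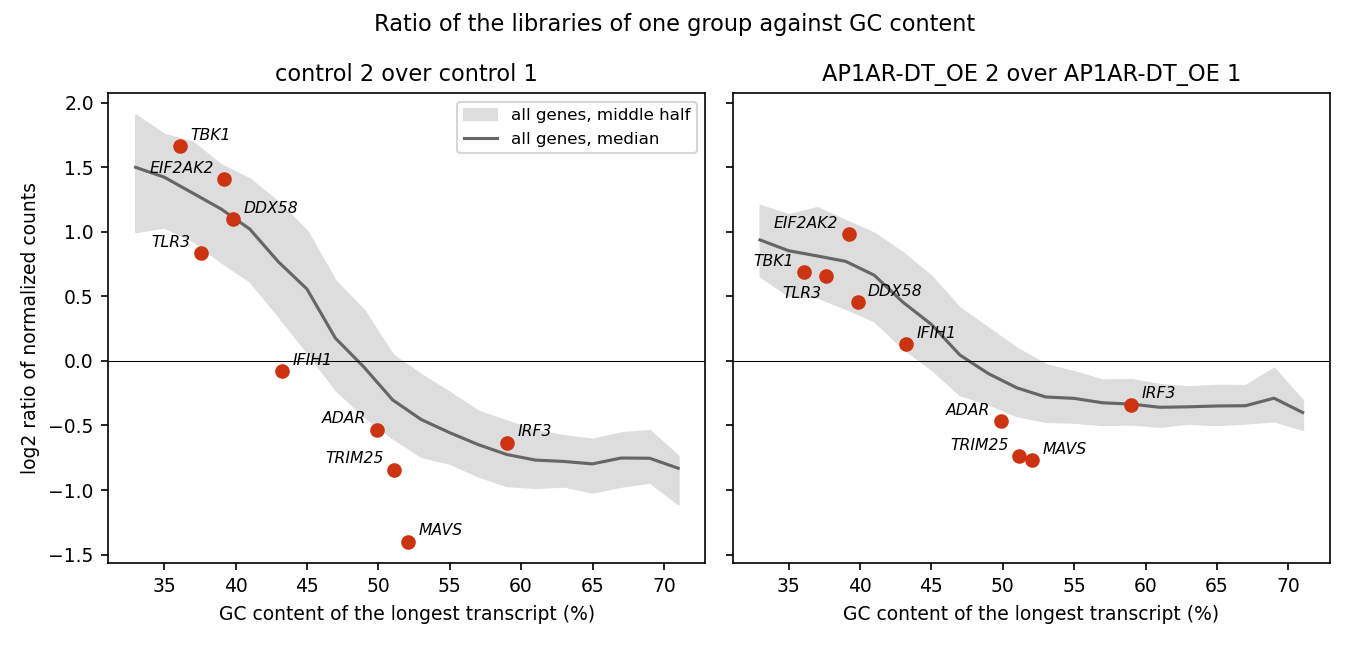
Log2 ratio of normalized counts between the libraries of one group (left, control 2 over control 1; right, AP1AR-DT_OE 2 over AP1AR-DT_OE 1) against the GC content of the longest transcript in percent, with members as red points and the median and middle 50% of all genes in 2-point bins as line and band. Members with a GC content under 40% lie above 0 and those of 49.9% or more lie below it in both panels, and MAVS, TRIM25 and ADAR lie under the band in both.

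With the GC trend taken out, the highest library of EIF2AK2 was 1.37 times the lowest instead of 2.75 times, that of TBK1 1.61 instead of 3.31, that of DDX58 1.29 instead of 2.17 and that of IRF3 1.05 instead of 1.55. MAVS kept a spread of 2.08 times (2.64 before), and IFIH1 spread further apart, from 1.29 to 1.82 times. The Log2FC then lay between -0.48 (TBK1) and 0.27 (IFIH1), with the sign of each of the 9 as before, and none was called. The part of base composition in these library differences was not tested.

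The rest of the pathway was read from 8 lists of 156 genes, of which 139 had a row. None was called in either direction, and 1 (IRF9) had an unadjusted p under 0.05. Of the 113 genes averaging 50 or more normalized counts, 50 had a Log2FC above 0 and the median was -0.04. The groups did not overlap for 9 of the 113, where they did not overlap for 9.45% of all genes at that level.

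**Figure D4:**
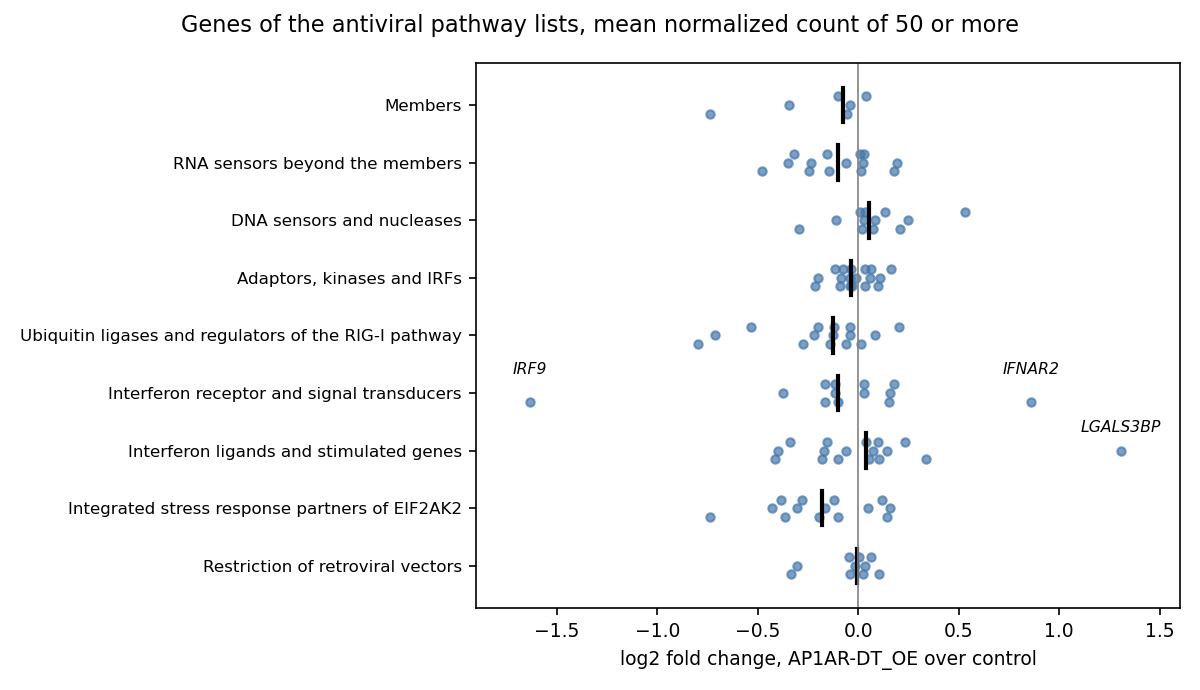
Log2FC, AP1AR-DT_OE over control, of each gene averaging 50 or more normalized counts in the members and the 8 pathway lists (points, spread vertically for legibility), with a bar at the median of each list. The medians lie between -0.18 and 0.05, and the points named are IRF9, IFNAR2 and LGALS3BP.

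Of 22 further RNA sensors and partners, 18 had a row and none was called. Per kilobase the highest were TARBP2, a partner of Dicer that binds duplex RNA, NLRP1 and ZNFX1, at 370, 318 and 310. DHX58, the third RIG-I-like helicase (LGP2) and named here for its role, was at 20.5 per kilobase and read from 36.7 to 69.5 normalized counts. TLR7, TLR8, ZBP1 and ADARB2 had no row, and OAS2, an enzyme activated by duplex RNA, stayed under the floor of 12 counts (3 read pairs) in every library. The largest differences were those of NLRP1 (Log2FC = -0.48) and DHX36 (-0.35). NLRP1 was at -0.03 without AP1AR-DT_OE 1, and DHX36 at 0.35 without control 2.

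All 15 DNA sensors and nucleases had a row and none was called. TMEM173, which encodes the adaptor STING, reached 1419 per kilobase, above 94.3% of genes, with 5569 and 3280 normalized counts in control 1 and 2, and 5017 and 4303 in AP1AR-DT_OE 1 and 2. MB21D1, which encodes cGAS, the enzyme whose product activates STING, had 0 counts in 3 libraries and 4 in AP1AR-DT_OE 2, all under the floor. The adaptor was thus well read and its sensor was not detectable at this depth. TREX1, the exonuclease that clears cytosolic DNA, and RNASEH2C, a subunit of RNase H2, were at 1016 and 588 per kilobase. The largest differences were those of RNASEH2C (Log2FC = 0.53) and TLR9 (-0.29). RNASEH2C was at -0.21 without AP1AR-DT_OE 1 and at 0.08 without control 1, and TLR9 at 0.47 without control 1.

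Of 22 adaptors, kinases and transcription factors, 20 had a row and none was called. Among the 18 averaging 50 or more normalized counts, Log2FC lay between -0.22 (TANK, a scaffold of TBK1) and 0.16. TANK was at 0.54 without control 2 and at 0.11 without AP1AR-DT_OE 1. FADD, RELA and TRADD were the highest per kilobase, at 1704, 1560 and 1556. IKBKE, the kinase closest to TBK1, and IKBKG had no row, and TICAM2 lay under the floor, so TBK1 was the only kinase of its pair with a row. Every row held a count above 0 in at least 1 library. Whether a gene without a row had no counts or was not annotated cannot be told. TRAF6 had a Log2FC of -0.20. Of 19 ubiquitin ligases and regulators of RIG-I signalling, 16 had a row and none was called. PCBP1, PPP1CA and PCBP2 were the highest, at 9330, 1727 and 582.1 per kilobase, RNF125 lay under the floor, and RNF135, ZCCHC3 and TRIM31 had no row. USP3, a deubiquitinase, was read at 273 and 339 normalized counts in control 1 and 2, and at 183 and 170 in AP1AR-DT_OE 1 and 2, groups that did not overlap, with a Log2FC of -0.80 (SE = 0.52). TRIM14, with -0.72, followed it.

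Downstream, all 13 genes of interferon reception had a row, with IFNGR2, STAT2 and TYK2 highest at 1613, 327 and 249 per kilobase. None was called, and the largest differences were those of IRF9 (Log2FC = -1.63) and IFNAR2 (0.86). The interferon genes IFNB1, IFNL1, IFNL2 and IFNL3 and the chemokine CCL5 had no row. Of 34 interferon ligands and stimulated genes, 29 had a row and none was called, and the median Log2FC of the 17 at 50 or more was 0.04. LGALS3BP, IFITM2 and IFITM3 were the highest, at 6466, 3941 and 2614 per kilobase, while MX2, RSAD2 and XAF1 stayed at or under the floor. LGALS3BP (1.31) and PARP14 (-0.42) had the largest differences among those 17. LGALS3BP was at -0.76 without AP1AR-DT_OE 2, and PARP14 at 0.18 without AP1AR-DT_OE 1 and 0.02 without control 2. Among the 14 partners of EIF2AK2 in the integrated stress response, none was called, the median was -0.18, and ATF4, PPP1R15A and EIF2AK1 were the highest at 2298, 1485 and 967 per kilobase. The largest differences were those of ATF3 (-0.74) and DNAJC3 (-0.43), an inhibitor of PKR, and without control 2 they were 1.30 and 0.66. Of 17 genes that restrict retroviral vectors, 14 had a row and none was called, with TRIM28, APOBEC3C and SERINC3 highest at 5399, 1176 and 383 per kilobase. APOBEC3G lay under the floor, and APOBEC3A, APOBEC3B and SLFN11 had no row. MPHOSPH8 (-0.33) and FAM208A (-0.30), subunits of the HUSH silencing complex, had the largest differences among genes at 50 or more. They were 0.47 and 0.48 without control 2, and 0.21 and 0.02 without AP1AR-DT_OE 1.

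Genes with a GAAANNGAAA or GAAANGAAA match in a promoter were set beside those without, with no test. Among genes averaging 50 or more normalized counts, 579 with a match had a median Log2FC of -0.06, with 1 called higher and 0 lower. The 8680 without had -0.02, with 8 called higher and 5 lower. The median GC content was 46.6% with a match and 48.9% without, and its part in these medians was not tested. The 5 members with a match had Log2FC of -0.40 (DDX58), 0.26 (IFIH1), -0.30 (TLR3), -0.35 (EIF2AK2) and -0.05 (TRIM25).

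The pathway gene most like each member over the 4 libraries was found by the root mean square distance between centred log2 normalized counts, among 113 candidates. It was DDX3X for DDX58 (0.037), IFI6 for IFIH1 (0.061), PPP1R15B for TLR3 (0.097), TOMM70A for EIF2AK2 (0.036), APOBEC3C for TRIM25 (0.062), ZNFX1 for MAVS (0.14), DNAJC3 for TBK1 (0.16), PPP1CA for IRF3 (0.032) and PCBP1 for ADAR (0.038). These distances are descriptions over 4 points that share depth and base composition. The GC contents of the pair differed by more than 5 percentage points for IFIH1 (43.2% and 56.4%), TLR3 (37.6% and 43.4%) and ADAR (49.9% and 54.9%).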

How the data were processed

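RNA of 4 SK-N-SH libraries was sequenced as 150-base pairs. Per the paper, the authors used HISAT2 with hg19 for alignment and took counts from StringTie output with its accompanying script, and the annotation is not given in the sources used here. The submitters' processing notes instead name TopHat2 2.0.4, SAMtools, HTSeq, Cuffdiff and edgeR 2.6.12, so the counter is uncertain. The deposited counts are whole numbers per gene with no normalization, and the coordinates beside them are GRCh38 positions. The table also holds the authors' own fold changes and p-values, which were not used.

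The 4 columns of counts were analysed with DESeq2 1.42.0 (R 4.3.3) over all 24014 genes: median-of-ratios size factors, a two-sided Wald test without covariate, Benjamini-Hochberg adjustment, called at an adjusted p under 0.05. edgeR 4.0.16 was an alternative. Lengths and GC contents came from the longest transcript in GENCODE v44 on GRCh37 (23954 genes). The GC correction took a lowess trend (span 0.3) out of each library. Libraries held 21988065 to 26184599 counts, the floor was 3 read pairs (12 counts), and intervals are at 95%. Fits were tested on simulated data.

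Members, lists and tests were chosen with earlier results of these data known. Named genes were the members and, per list, genes called, the 3 highest per kilobase, the 2 largest differences at a mean of 50 or more, and those at the floor or without a row. Some listed genes are not reported here.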

Additional observations from a re-analysis of the deposited data

How the results depend on the processing

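None of the 9 members was called under any alternative, and their lowest unadjusted p over all fits was 0.109. The count of called genes, 33, was 0 with the edgeR quasi-likelihood test, 15 after dividing the counts by 4, 55 with GC correction and 60 when the replicate block was added to that, and lay between 26 and 44 under the other fits of all 4 libraries. When a library was left out it ranged from 45 to 90 (90 without control 1, 75 without control 2, 50 without AP1AR-DT_OE 2), the lone library of a group being assumed to vary like the others. The cause was not tested. Of the listed pathway genes 0 were called with all libraries, and between 0 and 1 when a library was left out: IRF9 (adjusted p = 0.0055) without control replicate 2 and TRIM14 (adjusted p = 0.0189) without AP1AR-DT_OE replicate 1.

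The Log2FC of MAVS, -0.10, was 0.01 with replicate block (0.012) and 0.0057 in the edgeR test with replicate block. Leaving out a library gave ranges of -0.63 to 0.76 for MAVS, -0.85 to 0.28 for DDX58, -0.69 to 0.20 for TLR3, -0.94 to 0.54 for EIF2AK2, -0.30 to 0.25 for ADAR, -0.23 to 0.39 for IRF3, -1.34 to 0.35 for TBK1 and -0.48 to 0.43 for TRIM25, each across 0, and 0.18 to 0.32 for IFIH1. The sign turned without control 2 for DDX58, TLR3, EIF2AK2, TBK1 and IRF3, without control 1 or AP1AR-DT_OE 2 for MAVS, ADAR and TRIM25, and without AP1AR-DT_OE 1 for EIF2AK2 and IRF3. The replicate block changed no call of a member or listed gene. Libraries of the same number share only a number in the labels, and the correlation of their deviations from the group means over 16730 genes was 0.376, and 0.186 with the GC trend taken out. With MANE Select lengths 7 of the 8 neighbouring pairs kept their order. Depth limits DDX58, IFIH1, TLR3 and TBK1, read from 5 to 44.8 read pairs in a library. With the counts divided by 4 their SE was 1.28, 1.11, 1.25 and 0.95. How much of the width came from depth and how much from the few libraries was not tested.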

Other observations

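Some listed genes were set by 1 library. IRF9, the DNA-binding subunit of the interferon-activated ISGF3 complex, had 656 normalized counts in control 1 against 100.3 in control 2, 129 and 114 in AP1AR-DT_OE, and its Log2FC was -1.63 with all libraries and 0.28 without control 1. TRIM14, an adaptor at the mitochondrial MAVS complex, had 2120 and 1490 in the controls, 1943 in AP1AR-DT_OE 1 and 256 in AP1AR-DT_OE 2, with a Log2FC of 0.10 without that last library. LGALS3BP, a secreted glycoprotein raised by interferon, ranged from 2809 (control 2) to 35701 (AP1AR-DT_OE 2), with 13577 in control 1 and 4866 in AP1AR-DT_OE 1. IFNAR2, a chain of the type I interferon receptor, had 285 in AP1AR-DT_OE 1 and 80.9 to 139 in the other 3 libraries.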
